A study of Mus musculus with 8 samples.

Results

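The 10 genes described here encode the brakes and the switch of the G1 phase of the cell cycle: 4 inhibitors of cyclin-dependent kinases (Cdkn1a, Cdkn1b, Cdkn1c and Cdkn2c), the 3 retinoblastoma proteins (Rb1, Rbl1 and Rbl2) and the 3 D cyclins (Ccnd1, Ccnd2 and Ccnd3). They were chosen by symbol, and all 10 were found once each among the 37558 Ensembl genes of the count table. D cyclins activate the kinases Cdk4 and Cdk6, which phosphorylate the retinoblastoma proteins and so release E2F factors that drive genes of DNA replication. The inhibitors of the Cip/Kip group (p21, p27 and p57) act on several cyclin-kinase complexes, while those of the INK4 group, such as p18, bind Cdk4 and Cdk6. Muscle and neuron precursors leave the cell cycle as they differentiate, and in muscle MyoD is known to raise p21 and Rb.

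Poly(A)-selected RNA was measured in mouse P19 cells, an embryonal carcinoma line able to form neurons or muscle, after lentiviral transduction with polybrene and transfer of every culture, controls included, to a medium for neurons (Neurobasal with B27). The 8 groups were GFP (the control), MyoD, NeuroD2, the chimera MD(ND2bHLH), in which the DNA-binding and dimerisation domain (bHLH) of MyoD is exchanged for that of NeuroD2, the same chimera labelled with a multiplicity of infection (MOI), 100, the mutants of the chimera WC and WCS, and WCS at MOI 100. What WC and WCS change, and the MOI of the other 6 cultures, is not given in the labels used here. Each group had 1 library, so no difference between 2 libraries has a replicate check, and the only test uses 4 libraries together. Intervals printed with a ratio are 95% and cover counting error only.

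Library totals lay between 26410500 and 43984066 counts. Levels are given in CPM, a gene's count divided by the library's total in megacounts, with totals scaled by TMM over the 8 libraries. Of 8 embryonal carcinoma markers 6 reached 1 CPM in GFP, and their summed level was 2662 CPM there, while the other 7 libraries held 389.5 to 1152 CPM. Pou5f1 (1227 CPM) and Lin28a (1093 CPM) led the GFP sum. Sox2 did not follow it, at 124 CPM in GFP, 158 in the chimera, 181 in WC and 205 CPM in WCS, but 95.7 CPM in MyoD. Zfp42 and Dppa5a were at or near 0 in all. Summed skeletal muscle markers (10 genes) stood at 72.2 CPM in GFP, 10380.0 CPM in MyoD, 1047 CPM in the chimera and 1705 CPM in the chimera at MOI 100, and at 18.3 to 58.1 CPM in WC, both WCS libraries and NeuroD2. Summed neuron markers (10 genes) stood at 342 CPM in GFP, 228 CPM in MyoD, 691 CPM in the chimera and 1868 to 5196 CPM in the other 5. Summed fibroblast markers lay between 27.9 CPM in GFP and 112 CPM in WC, where Col1a2 held 103 CPM against 12.7 CPM in GFP. Markers of endoderm (2.04 to 16.5 CPM), glia (3.33 to 5.91 CPM) and blood or endothelium (0.175 to 1.05 CPM) were low throughout. Myod1 transcripts, which include the delivered MyoD and chimera, reached 296 CPM with MyoD and 116 CPM with the chimera. They were at 106 CPM for WC and 77.3 CPM for WCS, and at 555 and 857 CPM for the chimera and WCS at MOI 100. Rn7s6, a 7S RNA gene, split the libraries otherwise, with 16.3 CPM in GFP, 14.4 CPM in WCS and near-equal levels for MyoD and WC, against 0.565 to 1.29 CPM elsewhere. Its split separates WC, WCS and MyoD from the chimera without an MOI label, and GFP and MyoD from NeuroD2. It also separates GFP from both chimera libraries and from WCS at MOI 100. WCS is likewise separated from WCS at MOI 100, and both enter the only test. The part of this split in the results was not tested.

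Upstream sequences are shown for Cdkn1a, the gene with the widest range of levels, and for its relative Cdkn1b, the gene with the narrowest, since MyoD and NeuroD2 bind E-boxes (CANNTG). Each is the 250 bases before an annotated start in RefSeq on GRCm38.p6, 5′ to 3′ on the gene's strand, with E-boxes and any pair of CATG with 6 bases between them, the spacing of the core letters of a p53 site, in capitals. The files were made on mm9, so these coordinates do not apply to them. The regions are chr17:29090729-29090978 (plus strand) and chr17:29093519-29093768 (plus strand) for the 2 starts of Cdkn1a, and chr6:134920151-134920400 (plus strand) for Cdkn1b.
Cdkn1a start 1: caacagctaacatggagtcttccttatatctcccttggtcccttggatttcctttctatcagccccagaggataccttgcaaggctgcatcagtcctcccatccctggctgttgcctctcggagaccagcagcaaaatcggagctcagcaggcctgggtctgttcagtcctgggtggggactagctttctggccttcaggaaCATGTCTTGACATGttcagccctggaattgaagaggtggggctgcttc
Cdkn1a start 2: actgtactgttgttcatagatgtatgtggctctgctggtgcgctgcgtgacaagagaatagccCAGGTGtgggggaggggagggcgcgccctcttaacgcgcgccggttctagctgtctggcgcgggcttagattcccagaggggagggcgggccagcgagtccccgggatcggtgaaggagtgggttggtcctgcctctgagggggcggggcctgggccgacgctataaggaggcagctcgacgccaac
Cdkn1b start 1: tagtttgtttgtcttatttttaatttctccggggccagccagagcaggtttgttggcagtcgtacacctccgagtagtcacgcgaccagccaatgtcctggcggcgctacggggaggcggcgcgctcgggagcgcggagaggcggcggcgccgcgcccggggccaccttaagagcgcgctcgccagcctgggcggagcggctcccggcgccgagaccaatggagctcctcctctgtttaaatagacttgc

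The first Cdkn1a window held no E-box and 1 such CATG pair, beginning 48 bases before the start. The second held 1 E-box, CAGGTG, beginning 187 bases before the start. The Cdkn1b window held neither. Among 32851 windows of this kind, 66.2% held an E-box of any sequence, 4271 windows held CAGCTG, 17.2% CAGGTG and 14.4% CAGATG on either strand, and 0.490% held the CATG pair, a word searched after the Cdkn1a sequence was seen. Windows were found for 6 of the 10 genes, with 9 starts in all. The other E-box among them was CAGCTG in Rbl1, beginning 183 bases before the start, and the windows of Cdkn2c, Rbl2 and Ccnd3 held none. Cdkn1c, Rb1, Ccnd1 and Ccnd2 were not matched. These are letter matches within short windows, and counts per gene do not show which start was used.

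Among the inhibitors, Cdkn1a (ENSMUSG00000023067), which encodes p21, separated the libraries most. It stood at 8.51 CPM in GFP, 187 in MyoD, 59.9 in the chimera, 92.4 in the chimera at MOI 100, 8.99 in WC, 5.98 in WCS, 8.24 in WCS at MOI 100 and 13.5 CPM in NeuroD2. The MyoD library and both chimera libraries were high, at 59.9 CPM or more, and the other 5 were low, at 13.5 CPM or less. These sets were named from the Cdkn1a values themselves. Over GFP the ratio was 22.0 in MyoD (19.7 to 24.6), 7.03 in the chimera (6.26 to 7.92) and 10.9 in the chimera at MOI 100 (9.71 to 12.2). NeuroD2 was 1.58-fold above GFP (1.36 to 1.83) and WCS 1.42-fold below it (1.19 to 1.72), while WC, GFP and WCS at MOI 100 did not differ beyond counting error. MyoD held 13.9 times the Cdkn1a of NeuroD2 (12.6 to 15.5). The 3 high libraries are those with the highest summed muscle markers. In bulk samples a change in the number of cells of a type and a change in RNA per cell cannot be told apart, and the part of cell make-up in this result was not tested.

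Cdkn1b (ENSMUSG00000003031), which encodes p27, varied least. Its levels were 212 CPM in GFP, 185 in MyoD, 238 in the chimera, 237 in the chimera at MOI 100, 251 in WC, 245 in WCS, 289 in WCS at MOI 100 and 258 CPM in NeuroD2. MyoD, the library with the most Cdkn1a, held the least Cdkn1b, 1.15-fold below GFP (1.11 to 1.19), and WCS at MOI 100 held the most, 1.36-fold above GFP (1.32 to 1.40).

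Cdkn1c (ENSMUSG00000037664), which encodes the imprinted inhibitor p57, was scarce outside MyoD. It had 149 counts (5.72 CPM) in MyoD and 9 to 31 counts (0.282 to 1.08 CPM) in the other 7 libraries. Its ratio over GFP, where it had 13 counts, was 18.1 in MyoD with a wide interval (10.3 to 34.8). MyoD also stood 5.32-fold above the next library, the chimera at MOI 100.

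Cdkn2c (ENSMUSG00000028551), which encodes the INK4 protein p18, was lowest in GFP and higher wherever a factor was delivered. It stood at 2.51 CPM in GFP (103 counts), 5.95 in MyoD, 9.04 in the chimera, 9.72 in the chimera at MOI 100, 6.55 in WC, 6.35 in WCS, 5.86 in WCS at MOI 100 and 9.47 CPM in NeuroD2. The 2 chimera libraries and NeuroD2 formed an upper group within counting error of their neighbours, and MyoD, WC and both WCS libraries a lower one. Ratios over GFP ran from 2.34 to 3.88 and all 7 share the one GFP library. The other INK4 genes looked up, Cdkn2a and Cdkn2b, stayed below 5 CPM in every library, and Cdkn2d was not matched by symbol.

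**Figure D1:**
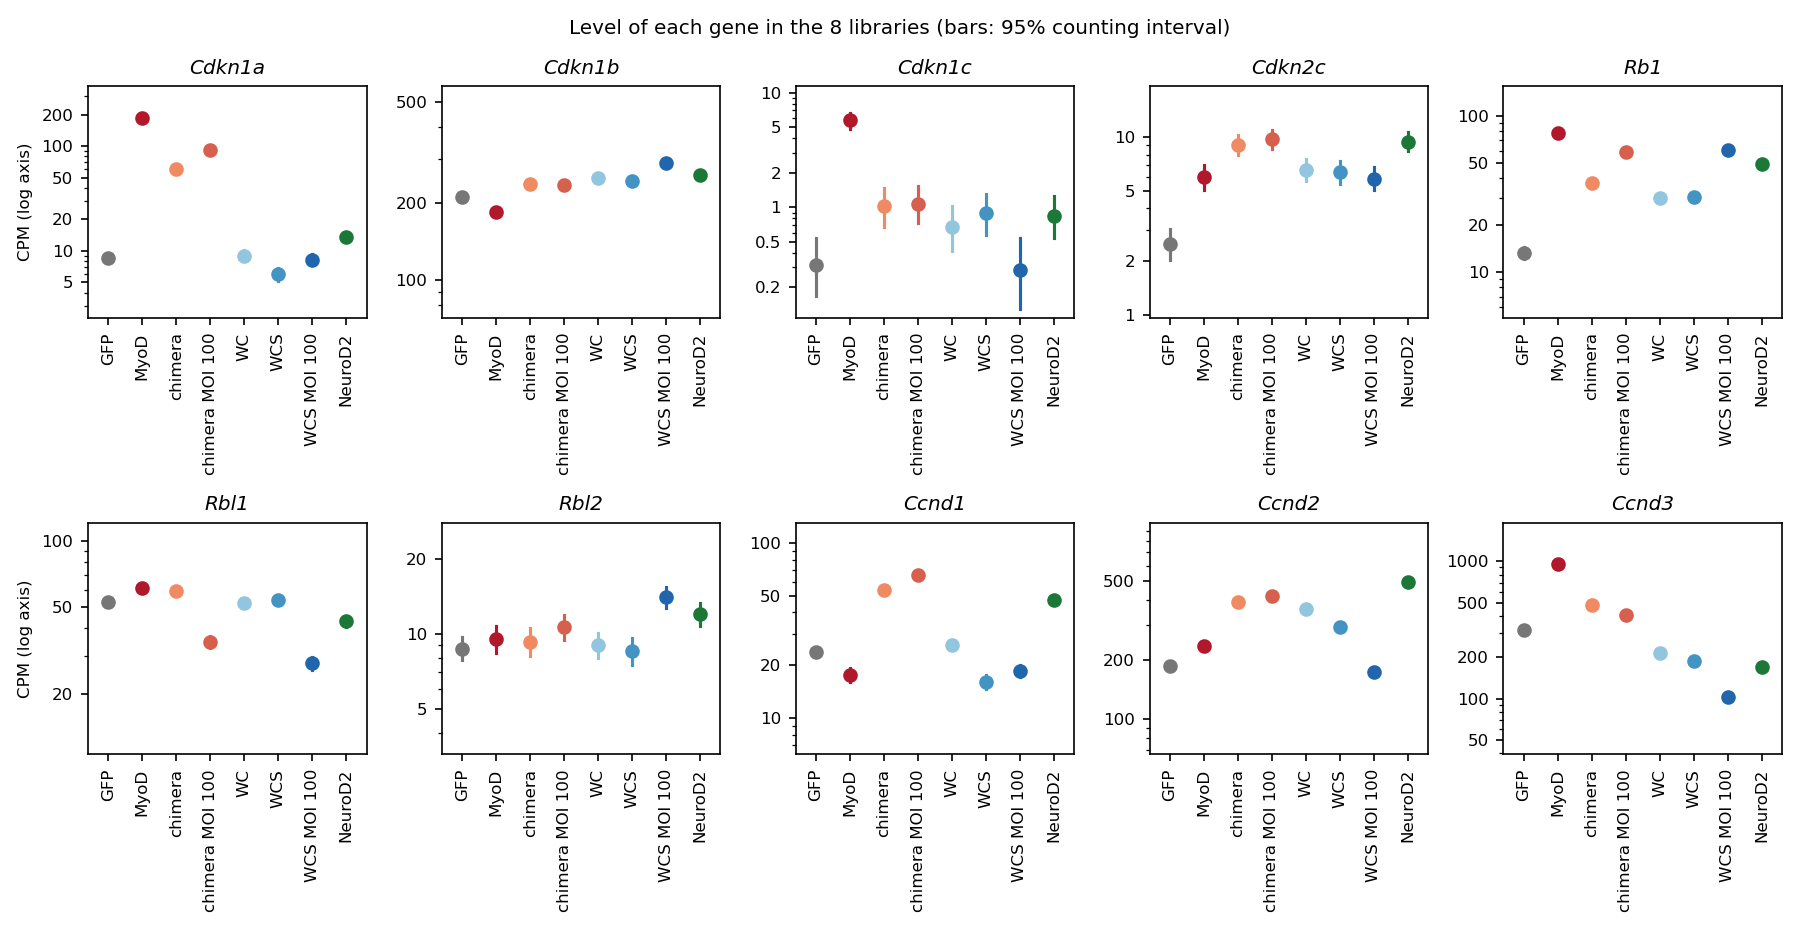
CPM of each of the 10 genes (log axis) in the 8 libraries, 1 point a library, with bars for the 95% counting interval. Cdkn1a is high in MyoD and both chimera libraries (59.9 to 187 CPM) and at 5.98 to 13.5 CPM in the other 5, while Cdkn1b stays between 185 and 289 CPM in all 8.

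In the retinoblastoma family the member that moved most was Rb1 (ENSMUSG00000022105), which encodes pRb. It stood at 13.3 CPM in GFP, 77.7 in MyoD, 37.0 in the chimera, 58.5 in the chimera at MOI 100, 29.8 in WC, 30.1 in WCS, 60.4 in WCS at MOI 100 and 49.5 CPM in NeuroD2. GFP was lowest, and the ratio over it was 5.84 in MyoD (5.31 to 6.43), 4.54 in WCS at MOI 100 (4.13 to 5.00), 4.40 in the chimera at MOI 100 (3.99 to 4.85), 3.72 in NeuroD2 (3.37 to 4.11) and 2.24 to 2.78 in the chimera, WC and WCS. Unlike Cdkn1a, Rb1 was high in libraries of either kind, with muscle markers (MyoD) or with few (WCS at MOI 100, NeuroD2). The chimera and WCS at MOI 100 did not differ beyond counting error, nor did WC and WCS. Rb1 shares 105 of its 4656 exon bases with Rcbtb2 on the other strand, which stayed between 34.4 and 47.8 CPM.

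Rbl1 (ENSMUSG00000027641) encodes p107, the family member found mostly in dividing cells. Its levels were 52.9 CPM in GFP, 60.7 in MyoD, 59.2 in the chimera, 34.6 in the chimera at MOI 100, 52.0 in WC, 54.0 in WCS, 27.6 in WCS at MOI 100 and 43.0 CPM in NeuroD2. The 2 libraries at MOI 100 were lowest, 1.53-fold below GFP in the chimera (1.42 to 1.65) and 1.92-fold below it in WCS (1.77 to 2.07), and NeuroD2 came next. Rbl2 (ENSMUSG00000031666), which encodes p130, the member of resting cells, lay between 8.53 CPM in WCS and 14.0 CPM in WCS at MOI 100. Of the 7 steps between neighbouring libraries 6 were inside counting error. Over GFP its ratio was 1.61 in WCS at MOI 100 (1.40 to 1.85), 1.38 in NeuroD2 (1.18 to 1.60) and 1.22 in the chimera at MOI 100 (1.04 to 1.42). MyoD, the chimera, WC and WCS did not differ from GFP in Rbl2 beyond counting error. Rbl2 shares 418 exon bases with Aktip on the other strand (43.6 to 55.5 CPM) in the annotation used here, and the strand setting of the counting is not known, so its low level is uncertain.

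Per kb of exon, the scale on which genes can be compared, Rbl1 was the main retinoblastoma transcript in GFP and Rb1 in 4 other libraries. Rb1 made up 18.4% of the family's summed CPM per kb in GFP, 33.5% in WCS, 33.8% in WC and 36.1% in the chimera, against 48.5% in NeuroD2, 53.6% in MyoD, 57.5% in the chimera at MOI 100 and 60.3% in WCS at MOI 100. Rbl1 went from 70.2% in GFP to 26.4% in WCS at MOI 100. Among the 4 inhibitors Cdkn1a was the main transcript in MyoD alone of the 8 libraries, at 60.1% against 35.4% for Cdkn1b. Cdkn1b stayed ahead in the chimera (66.8% against 28.2% for Cdkn1a) and in the chimera at MOI 100 (57.6% against 37.7%), and made up 86.4% to 92.2% in the other 5.

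**Figure D2:**
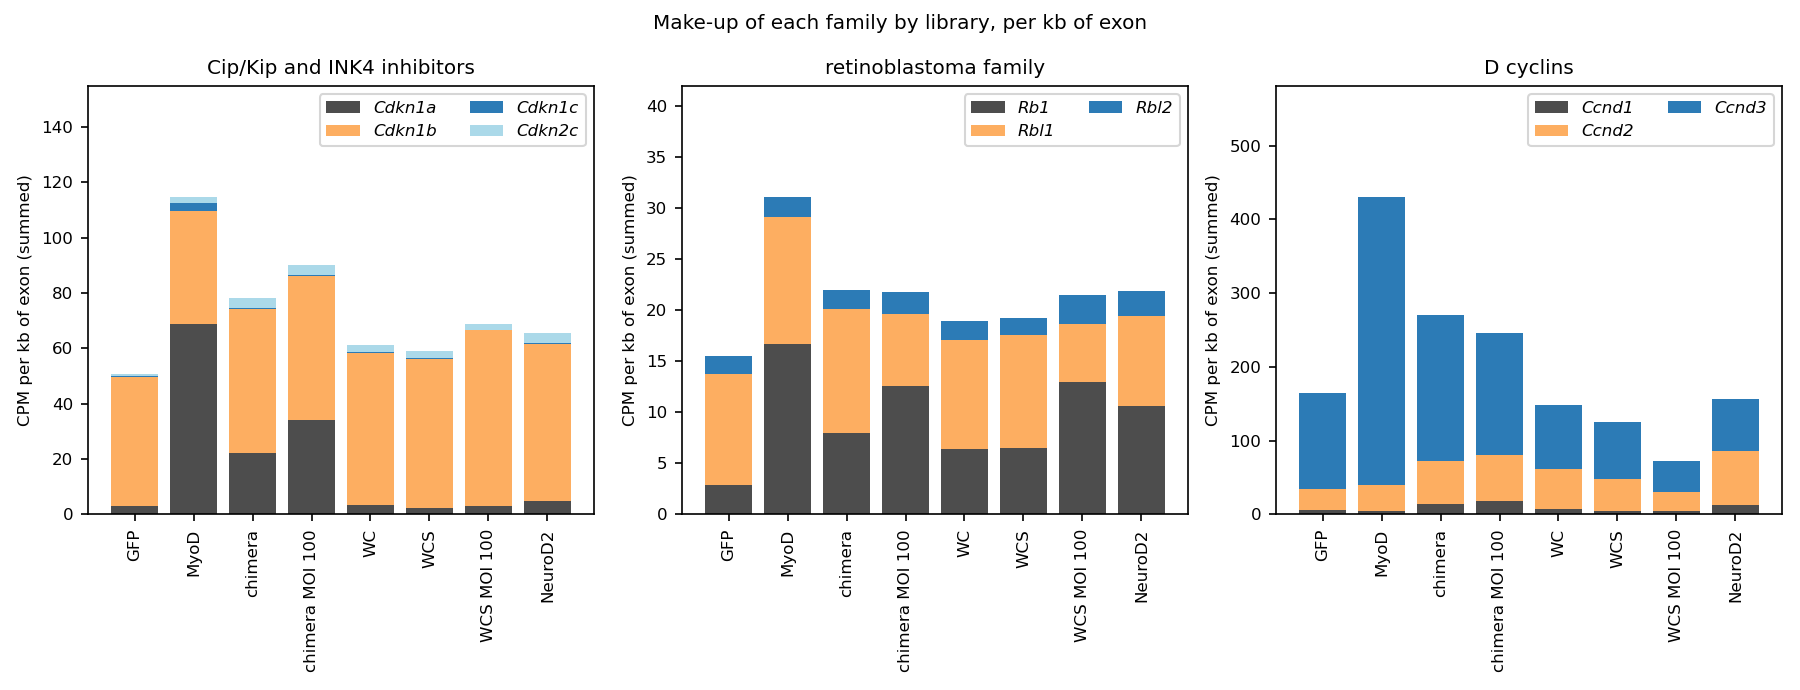
Stacked bars of CPM per kb of exon for the members of each family in the 8 libraries, starting at 0. Cdkn1a fills 60.1% of the inhibitor bar in MyoD, Rb1 goes from 18.4% of its family in GFP to 60.3% in WCS at MOI 100, and the D cyclin bar is tallest in MyoD (430.3 CPM per kb) and shortest in WCS at MOI 100 (72.6 CPM per kb).

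The D cyclins split by factor. Ccnd3 (ENSMUSG00000034165), the D cyclin known to be kept in differentiated muscle, stood at 319 CPM in GFP, 956 in MyoD, 482 in the chimera, 406 in the chimera at MOI 100, 214 in WC, 190 in WCS (189.6), 102 in WCS at MOI 100 and 171 CPM in NeuroD2. MyoD and both chimera libraries were above GFP, and the other 4 below it. The ratio over GFP was 3.001 in MyoD (2.94 to 3.07), and WCS at MOI 100 was 3.11-fold below GFP (2.995 to 3.24). MyoD held 5.59 times as much as NeuroD2 (5.42 to 5.77). Bysl, which shares 361 of the 2447 exon bases of Ccnd3 on the other strand, was also highest in MyoD (280.6 CPM) and lowest in WCS at MOI 100 (72.6 CPM). With the strand setting unknown, the part of shared reads was not tested.

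Ccnd2 (ENSMUSG00000000184) was highest in NeuroD2. Its levels were 187 CPM in GFP, 235 in MyoD, 392 in the chimera, 421 in the chimera at MOI 100, 363 in WC, 294 in WCS, 173 in WCS at MOI 100 and 495.5 CPM in NeuroD2. NeuroD2 stood 2.65-fold above GFP (2.58 to 2.73), MyoD 1.26-fold (1.22 to 1.30), and WCS at MOI 100 1.08-fold below it (1.04 to 1.12), a direction that reversed under the scaling to total counts.

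Ccnd1 (ENSMUSG00000070348) was highest in the chimera. It stood at 23.6 CPM in GFP, 17.5 in MyoD, 53.6 in the chimera, 65.3 in the chimera at MOI 100, 26.03 in WC, 16.1 in WCS, 18.5 in WCS at MOI 100 and 47.4 CPM in NeuroD2. Both chimera libraries and NeuroD2 stood apart from the other 5. The chimera held 3.06 times the Ccnd1 of MyoD (2.75 to 3.41) and 1.13 times that of NeuroD2 (1.05 to 1.22). Ccnd1 shares 818 of 3740 exon bases with a gene on the other strand, LTO1, at 6.13 to 20.8 CPM. LTO1 was highest in the chimera at MOI 100, as Ccnd1 was, and lowest in GFP. The part of shared reads was not tested here either.

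Per kb, Ccnd3 was the main D cyclin in 7 libraries, with 90.8% of the summed D cyclins in MyoD, 79.2% in GFP, 73.0% and 67.4% in the chimera without and with the MOI 100 label, and 57.7% to 61.7% in WC and both WCS libraries. In NeuroD2 Ccnd2 made up 47.2% and Ccnd3 44.7%. Summed D cyclins stood at 430.3 CPM per kb in MyoD and 72.6 in WCS at MOI 100, against 164 in GFP.

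To count genes, a ratio of 2 or more on log2(CPM + 0.5) was required, and 5 CPM or more in the higher of the 2 libraries. In MyoD over GFP all 10 members passed the level filter, of which 5 were higher and 0 lower (Cdkn1a, Cdkn1c, Cdkn2c, Rb1 and Ccnd3), where 9.31% of all genes tested were higher and 6.86% lower. In NeuroD2 over GFP 3 of 9 were higher (Cdkn2c, Rb1 and Ccnd2), and 0 lower, against 14.7% and 8.82% of all genes, and Ccnd1 fell just short at a ratio of 2.01. In the chimera over GFP 5 of 9 were higher (Cdkn1a, Cdkn2c, Rb1, Ccnd1 and Ccnd2), and 0 lower, against 7.81% and 5.43%. The same 5 were higher and 0 lower in the chimera at MOI 100, against 16.5% and 11.9%. In WC over GFP 2 of 9 were higher, Cdkn2c and Rb1, and 0 lower, against 9.8% and 4.82%. In WCS over GFP the same 2 were higher and 0 lower, against 9.84% and 5.73%. In WCS at MOI 100 2 of 9 were higher, Cdkn2c and Rb1, against 17.8%, and 1 lower, Ccnd3, against 15.2%. Cdkn1c was the member under the level filter in the 6 comparisons other than MyoD. Cdkn1c met that filter only through MyoD, where it was high. Cdkn2c, at 2.51 CPM in GFP, met it in all 7 comparisons only through the library compared with GFP. A fall of Cdkn2c below GFP could therefore not have been counted. All 7 comparisons share the GFP library.

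**Figure D3:**
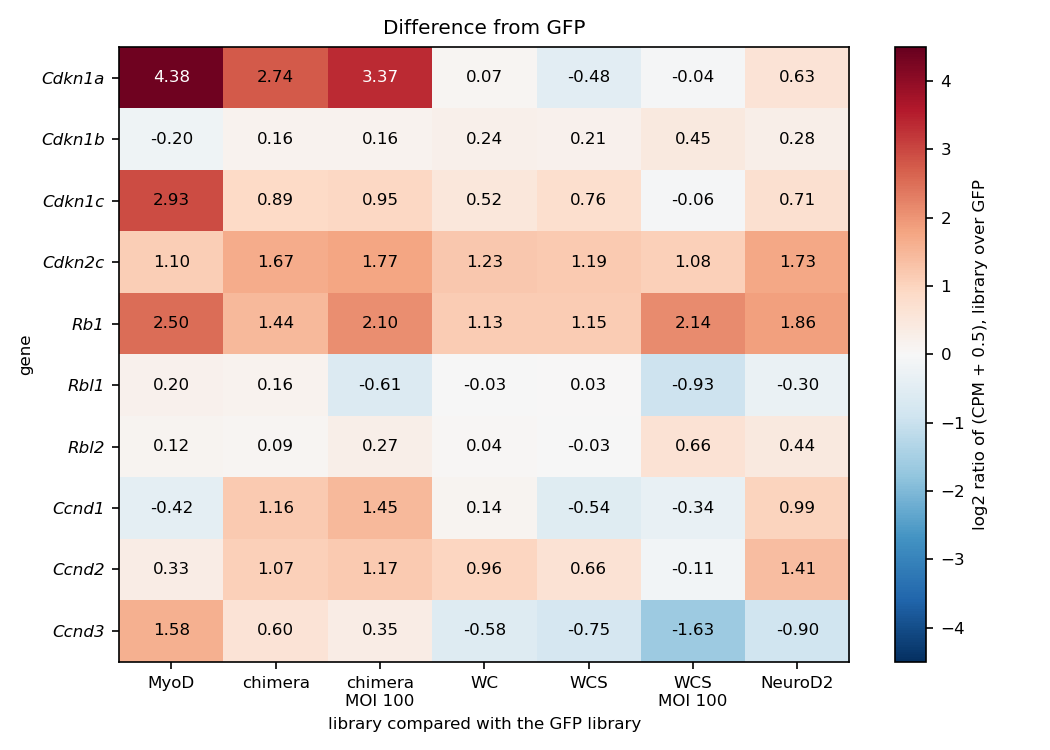
Log2 ratio of (CPM + 0.5) of each library over GFP for the 10 genes, red for higher and blue for lower. Cdkn2c and Rb1 are above 1 in all 7 columns (Cdkn2c in 3 with a pseudocount of 2 CPM), Cdkn1a in 3, and Ccnd3 goes from 1.58 in MyoD to -1.63 in WCS at MOI 100.

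MyoD and NeuroD2 were next set against each other and the chimera against both. In MyoD over NeuroD2, 3 members were higher (Cdkn1a, Cdkn1c and Ccnd3; 8.41% of all genes) and 2 lower (Ccnd1 and Ccnd2; 12.3%). The chimera over MyoD had 1 higher, Ccnd1 (5.72% of all genes), and 3 lower, Cdkn1a, Cdkn1c and Rb1 (6.28%). Over NeuroD2 it had 2 higher, Cdkn1a at 4.45-fold (3.98 to 4.99) and Ccnd3 at 2.82-fold (2.73 to 2.92), and 0 lower, where 2.86% and 7.1% of all genes were higher and lower. For Cdkn1a and Ccnd3 the chimera lay between NeuroD2 and MyoD, and its Ccnd1 and Ccnd2 were 1.13-fold above and 1.26-fold below those of NeuroD2.

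Both mutants held less Cdkn1a, Ccnd1 and Ccnd3 than the chimera. For Cdkn1a the gap was 6.66-fold with WC (5.86 to 7.59) and 10.01-fold with WCS (8.57 to 11.8). For Ccnd1 it was 2.06-fold (1.89 to 2.25) and 3.33-fold (2.997 to 3.70), and for Ccnd3 2.26-fold (2.19 to 2.33) and 2.54-fold (2.47 to 2.63). These were the 3 members past 2-fold in each comparison, all lower, where 2.15% of all genes were lower and 3.42% higher in WC, and 2.75% lower and 3.86% higher in WCS. At MOI 100 the same 3 were lower in WCS than in the chimera, at 11.2-fold (9.88 to 12.8), 3.53-fold (3.21 to 3.88) and 3.97-fold (3.82 to 4.13), and Ccnd2 joined them at 2.43-fold (2.36 to 2.51), where 4.3% of all genes were lower and 4.19% higher. Between WC and WCS 0 members were past 2-fold and 0.146% of all genes were. Ccnd1 was 1.62-fold (1.44 to 1.81) and Cdkn1a 1.503-fold (1.24 to 1.83) higher in WC.

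**Figure D4:**
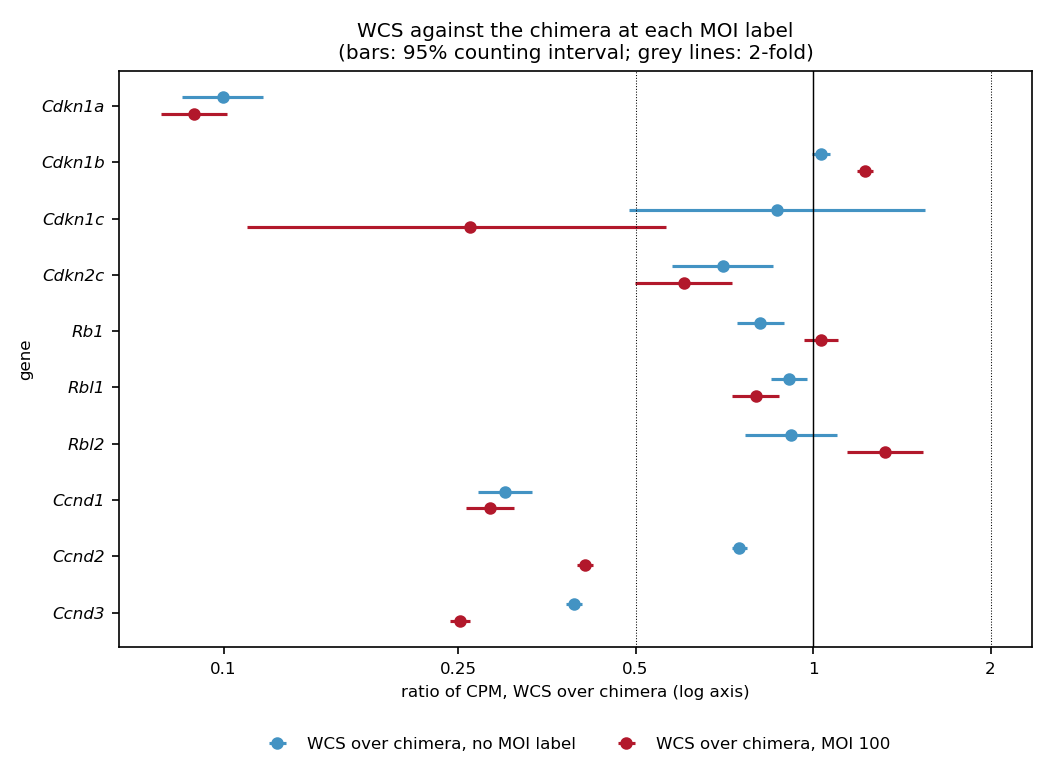
Ratio of CPM in WCS over the chimera (log axis) for the 10 genes, without an MOI label (blue) and at MOI 100 (red), with 95% counting intervals. Cdkn1a, Ccnd1 and Ccnd3 lie below 0.5 at both labels, and Ccnd2 is at 0.750 without the label and 0.411 at MOI 100.

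The 2 chimera and 2 WCS libraries were fitted in 1 model in edgeR's quasi-likelihood test with construct and MOI label as terms and Benjamini-Hochberg adjustment over 16079 genes. The CDK inhibitor Cdkn1a and all 3 D cyclins fell in WCS. Cdkn1a fell by 3.40 on the log2 scale (adjusted p = 9.29e-05), from a mean of 76.1 to 7.11 CPM. Ccnd1 fell by 1.77 (adjusted p = 0.00045), Ccnd3 by 1.66 (adjusted p = 0.00157) and Ccnd2 by 0.85 (adjusted p = 0.0395). The other 6 members did not pass, with changes of -0.96 for Cdkn1c, -0.62 for Cdkn2c, -0.23 for Rbl1, -0.12 for Rb1, 0.15 for Rbl2 and 0.17 for Cdkn1b and adjusted p of 0.14 to 0.77. In this fit 4 of 10 members were lower and 0 higher, where 5.49% of all genes were lower and 5.84% higher. The fit has 1 residual degree of freedom. Its p-values rest on how alike differences were at both labels, with each gene's variability drawn toward a trend over all 16079 genes. They do not measure the spread between cultures. Without the MOI label as a term no gene passed in edgeR (1137 did at an unadjusted p under 0.05, and DESeq2 with the term called 1643). With 1 of the 4 libraries left out and construct as the only term, the number of members called was 1 without either chimera library (Cdkn1a) and 0 without either WCS library. The folds themselves stayed at -3.06 to -3.68 for Cdkn1a and -1.62 to -1.90 for Ccnd1 over these leave-outs. Those of Ccnd3 and Ccnd2 moved more, to -1.22 and -0.46 without WCS at MOI 100 and to -2.11 and -1.22 without WCS.

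The MOI 100 label was read within each construct. Within the chimera Cdkn1a was 1.54-fold (1.45 to 1.64) and Rb1 1.58-fold (1.46 to 1.71) higher at MOI 100, and Rbl1 1.71-fold lower (1.58 to 1.86). Within WCS Rb1 was 2.01-fold higher (1.85 to 2.18), Rbl1 1.95-fold lower (1.797 to 2.12) and Ccnd3 1.85-fold lower (1.77 to 1.93). By the 2-fold rule 0 members passed in either comparison, where 9.38% and 11.7% of all genes did, although Rb1 in WCS passed under both other scalings.

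The partners of these genes were read from lists of the same pathway. Of the 5 kinase and E cyclin genes, Cdk6, a kinase partner of the D cyclins, stood at 48.9 CPM in GFP, 34.6 in MyoD, 22.3 in the chimera, 6.25 in the chimera at MOI 100, 19.6 in WC, 13.7 in WCS, 4.17 in WCS at MOI 100 and 10.2 CPM in NeuroD2. It was past 2-fold below GFP in 6 of 7 libraries, all but MyoD. Ccne1, which encodes cyclin E1, went from 70.8 CPM in GFP to 20.3 CPM in WCS at MOI 100, and was past 2-fold lower there and in NeuroD2, WC and WCS. Cdk4 stayed within 2-fold of GFP in all 7 libraries (540 CPM in MyoD, 495 in WCS at MOI 100, 778 in GFP). As a list count, 0 of 5 were lower in MyoD, 1 in each chimera library, 2 in NeuroD2, WC and WCS, and 3 in WCS at MOI 100. The third there was Cdk2, at 45.2 against 94.85 CPM in GFP. In all 7 libraries 0 of 5 were higher. Over all genes 4.82% (WC) to 15.2% (WCS at MOI 100) were lower. Of the 10 E2F and DP genes 1 was higher in MyoD, in NeuroD2 and in each chimera library, E2f2, at 34.6 CPM in MyoD against 8.03 in GFP, and 0 in WC, WCS or WCS at MOI 100. As a list count, 1 of 10 is near or under the share of all genes that were higher there (9.31%, 14.7%, 7.81% and 16.5%). WCS at MOI 100 held 2 of the 10 lower, the atypical repressors E2f7 and E2f8, where 15.2% of all genes were lower. Of the 5 MuvB genes, whose products join p107 and p130 in a repressor complex, 0 passed in any library over GFP.

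Genes of S phase and mitosis did not order the libraries as Cdkn1a did. In MyoD, where Cdkn1a was 22.0-fold above GFP, 0 of 17 were past 2-fold in either direction, with a median log2 ratio of -0.17 against -0.02 for all genes. The chimera, at 7.03-fold, also had 0 of 17, with a median of -0.15. In WCS at MOI 100, where Cdkn1a did not differ from GFP beyond counting error, 12 of 17 were lower and 0 higher, with a median of -1.30, against 15.2% of all genes lower. There the mitotic kinases Plk1 and Aurkb stood at 71.6 and 62.4 CPM against 295 and 244 CPM in GFP, and Cdk1 at 92.7 against 346 CPM. NeuroD2 and the chimera at MOI 100 had 3 of 17 lower each, with medians of -0.79 and -0.73, where 8.82% and 11.9% of all genes were lower. WCS without the MOI label also had 3 of 17 lower, with a median of -0.53, against 5.73% of all genes. WC had 1 of 17 lower, with a median of -0.47, against 4.82%. In the 4-library fit, which sets no fold threshold, 9 of the 17 fell in WCS and 0 rose, where 5.49% of all genes fell and 5.84% rose. By the 2-fold rule 0 of 17 were lower in WCS than in the chimera, without the MOI label or at MOI 100. Among the 9 were Plk1 (-0.85, adjusted p = 0.00466 in edgeR's quasi-likelihood test), Rrm2 and Mki67. With the MOI label not a term, 0 genes were left.

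Cdkn1a is a classical target of p53, so 15 other targets were read beside it. In MyoD 12 of them passed the level filter, of which 1 was higher, Sesn2, a stress-response protein, at 328 against 100.4 CPM, and 1 lower, Pmaip1, which encodes the death protein Noxa, at 1.42 against 17.3 CPM. Their median was -0.28. In the chimera 1 of 13 was higher, the antiproliferative gene Btg2, at 93.5 against 22.6 CPM, and 1 lower, Pmaip1. Mdm2, the p53 inhibitor, was among those that did not pass in either. Over all genes 9.31% were higher and 6.86% lower in MyoD, and 7.81% and 5.43% in the chimera, so these counts lie near the background. In the chimera at MOI 100 2 of 13 were higher, Btg2 and Trp53inp1, and 3 lower, Pmaip1 and Sesn1 among them. There 16.5% of all genes were higher and 11.9% lower, and the list median was 0.10. Btg2 was past 2-fold above GFP in 6 of 7 libraries, all but MyoD, the library with the most Cdkn1a, and reached 169 CPM in WCS at MOI 100. In the 4-library fit, where Cdkn1a fell, 2 of 13 of these targets fell and 0 rose, against 5.49% and 5.84% of all genes. In edgeR's quasi-likelihood test Pmaip1 fell by 2.65 (adjusted p = 0.0416) and Eda2r by 1.5 (adjusted p = 0.014). The list median was -0.01, equal to that of all genes. Pmaip1 was 9.26-fold lower in WC and 19.7-fold lower in WCS than in the chimera, at only 0.867 and 0.408 CPM. At MOI 100 the gap was smaller, with 1.63 CPM in WCS against 4.34 CPM in the chimera.

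**Figure D5:**
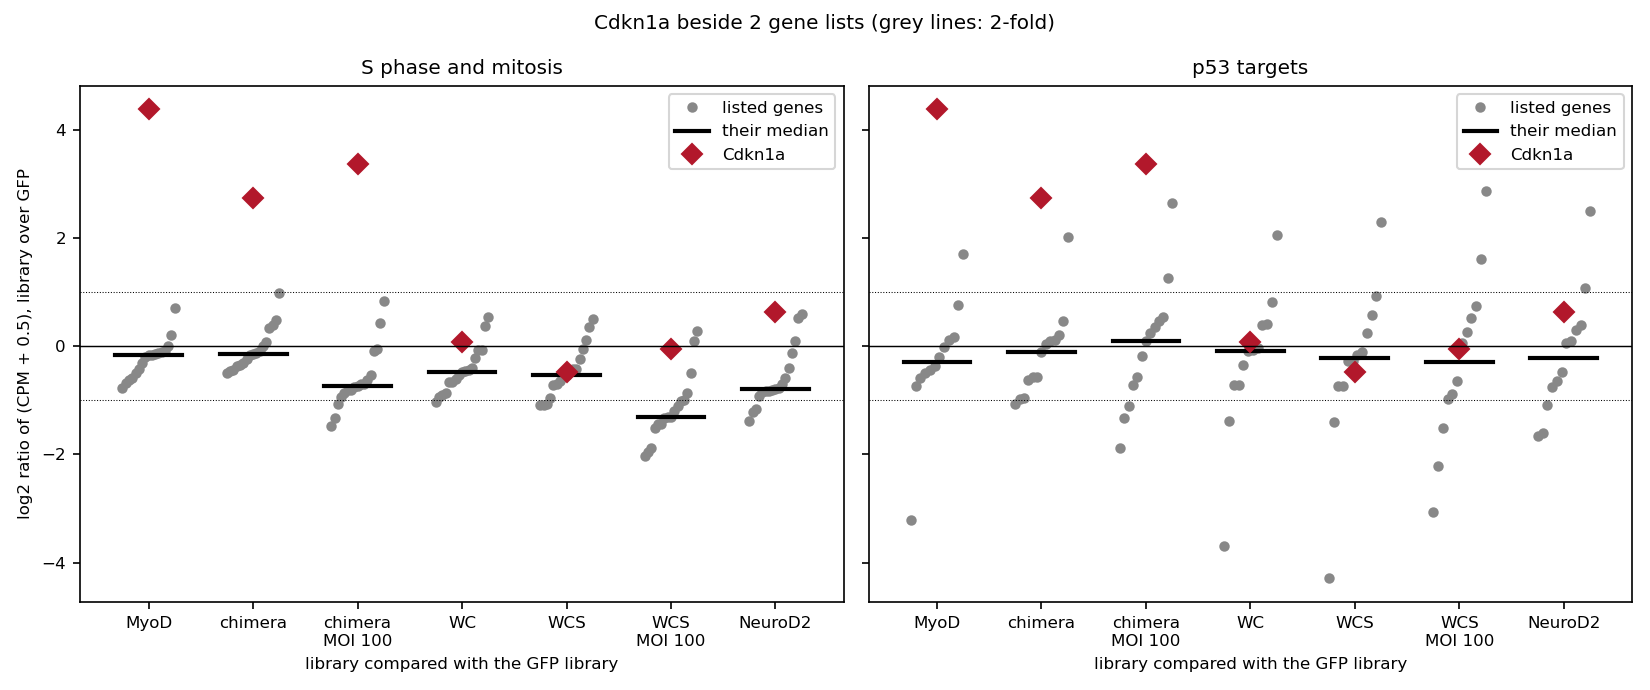
Log2 ratio of (CPM + 0.5) over GFP for the S phase and mitosis genes (left) and other p53 targets (right) that passed the level filter, 1 grey point a gene, with their median as a bar and Cdkn1a as a diamond. The S phase median is lowest in WCS at MOI 100 (-1.30), where Cdkn1a lies near 0.

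Genes with the most similar pattern over the 8 libraries were looked up for the members whose highest and lowest libraries lay 4-fold or more apart on log2(CPM + 0.5), which leaves out Ccnd1 (3.97-fold on that scale, 4.06-fold in CPM), by the root mean square difference of centred log2(CPM + 0.5) among 11648 named genes of 5 CPM or more in some library. For Cdkn1a these were Igf2os (0.25), Ankrd2, a muscle ankyrin-repeat gene (0.38), and Cox8b, a muscle form of a respiratory subunit (0.39). Ankrd2 and Cox8b were each at only 0.0243 CPM in GFP, against 19.8 and 8.22 CPM in MyoD. Their likeness to Cdkn1a, at 8.51 CPM in GFP, therefore depends on the 0.5 CPM added before the log. Igf2os is the antisense partner of Igf2, and without strand its reads cannot be told from those of Igf2. It stood at 76.1 CPM in MyoD, 39.2 in the chimera and 6.13 in GFP. For Rb1 they were Ptprd, a neuronal receptor phosphatase (0.12), Gjd2 (0.21) and Slc22a17 (0.21). For Ccnd3 they were Ppargc1b, a coactivator of mitochondrial genes (0.17), Slc2a4, the insulin-responsive glucose transporter (0.21), and the forkhead factor Foxo4 (0.21), and for Cdkn1c they were Cap2 (0.23), Pcsk6 (0.24) and Ddc (0.30). The likeness is a description over 8 libraries with 1 library a group.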

How the data were processed

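The authors deposited raw counts of reads per Ensembl gene for 8 poly(A)-selected libraries. Per the submitters' processing notes the tools included TopHat2 2.0.8 and CASAVA 1.8.2, on build mm9. For the counting tool, annotation release and strand, nothing is stated in the labels read. Symbols were matched by Ensembl identifier in GENCODE M21 (87.5% of genes), and union exon lengths and overlaps come from the same GRCm38 annotation, so values per kb are approximate. Promoters come from RefSeq. CPM used TMM factors over the 8 libraries (edgeR 4.0.16), 0.9348 to 1.085. Ratios of CPM have exact conditional binomial 95% intervals. The 4-library fit used filterByExpr and a threshold of 0.05.

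The members, lists and rules were chosen with earlier results of these data known. Named were all members, at most 4 genes with the largest change in each list and comparison, and the 3 most similar genes for members spanning at least 4-fold on log2(CPM + 0.5). Genes of the lists followed across libraries (Cdk6, Ccne1, Cdk4, E2f2, Btg2, Mdm2, Pmaip1, Rrm2 and Mki67), single cell type markers and overlapping genes were named after their values were seen. Alternatives were other scalings, pseudocount, level filter and fold, and, for the fit, the DESeq2 1.42.0 Wald test, its size factors, no filter, no MOI term, all 8 libraries and leaving out each library. Steps were tested on simulated data. Software was matplotlib 3.10.9, scipy 1.17.1, pandas 2.3.3, Python 3.11.15 and R 4.3.3.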

Additional observations from a re-analysis of the deposited data

Results flagged for a closer look

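Ccnd2 went opposite ways with the MOI 100 label in the 2 constructs. In the chimera it was slightly higher at MOI 100, at a ratio of 1.07 (1.05 to 1.10), and in WCS it was lower, at a ratio of 0.588 (0.568 to 0.608). Each value compares 1 library with 1, and the difference between them was not tested.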

How the results depend on the processing

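The number of members past 2-fold stayed within 1.5 times its main value in 15 of 16 comparisons under DESeq2 size factors and under total counts, in 14 under a pseudocount of 2 CPM and in 16 with no minimum level. Under both other scalings WCS at MOI 100 over WCS went from 0 to 1 member (Rb1), and under the larger pseudocount Cdkn2c was lost in 4 of the 7 libraries over GFP: WC and WCS went from 2 to 1, MyoD from 5 to 4 and WCS at MOI 100 from 3 to 2. With a 4-fold threshold the counts over GFP became 3 in MyoD, 0 in NeuroD2, 1 in the chimera, 2 in the chimera at MOI 100, 0 in WC, 0 in WCS and 1 in WCS at MOI 100. They became 3 in MyoD over NeuroD2, 1 in the chimera over MyoD, 1 over NeuroD2, and 1 in each of WC and WCS over the chimera, at MOI 100 too. In scaling to total counts the median of all genes moved by up to 0.21 on the log2 scale (WCS at MOI 100 over GFP). In the 4-library fit 1821 genes and 4 members passed, and 0 genes and 0 members without the MOI term. With 1 library left out the range was 0 to 103 genes and 0 to 1 members. Those fits leave 1 construct with 1 library, which is assumed to vary like the other. Reversed fold changes, none past the threshold in edgeR, were those of Rbl1 without the chimera (0.25) and without WCS at MOI 100 (0.20), of Rb1 without the chimera at MOI 100 (0.30) and without WCS (0.35), and of Rbl2 without WCS at MOI 100 (-0.22). At the other end of their leave-out ranges stood Rbl1 at -0.76 and Rbl2 at 0.50 without WCS, and Rb1 at -0.66 without WCS at MOI 100. The cause was not tested. The calls of all 4 members held with DESeq2 size factors, the DESeq2 Wald test, no filter and all 8 libraries. The labels give no replicate numbers. The MOI label is the pairing in the fit, which called 1821 genes with that term and 0 without it (1137 at an unadjusted p under 0.05 in edgeR). Depth limits Cdkn1c most, with 9 to 31 counts outside MyoD.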
